A study of Mus musculus with 10 samples.

Results

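The 7 genes of the SoxB and SoxE subfamilies, *Sox1*, *Sox2*, *Sox3* and *Sox21* of SoxB and *Sox8*, *Sox9* and *Sox10* of SoxE, were followed in 10 RNAseq libraries of mouse tumorigenic astrocytes and of the glioma cells grown from them. They were taken by gene symbol from 23230 features, and all 7 were found. The libraries came from 3 groups. AstroEGFR* (n = 3) are p16/p19 (*Ink4a/Arf*) knockout astrocytes from the cerebral cortex of C57BL/6 mice at day P5, below passage 10, transduced by retrovirus with EGFRvIII, a human EGF receptor that signals without ligand. PT (n = 4) are glioma propagating cells, cultured below passage 10 from tumours that C57BL/6 cells of this kind formed in CD1 Nude mice, which lack T cells. The third group (n = 3) is the AstroEGFR* of each batch with a further vector that overexpresses *Zfp423*, a zinc-finger transcription factor. The p16/p19 knockout and EGFRvIII are thus common to every group, and no library of astrocytes without them was used here. Each culture gave 1 library. Astrocyte batch 1 gave rise to both PT1 and PT4, whereas batches 2 and 3 gave PT2 and PT3, so the 4 PT are not 4 independent starting cultures. Serum was in the medium of AstroEGFR*, while EGF and FGF2 without serum were in that of PT, so the medium and the passage through a tumour cannot be told apart. P-values measure the spread between these cultures only.

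Sox proteins bind DNA through an HMG box and bend it, and they act with partner factors at shared sites. The SoxB1 proteins Sox1, Sox2 and Sox3 keep neural progenitors undifferentiated, whereas Sox21, a SoxB2 protein, represses targets of SoxB1 and favours differentiation. Of the SoxE proteins, Sox9 is needed for the specification of glia and is kept in astrocytes, Sox10 drives the terminal differentiation of oligodendrocytes and of Schwann cells, and Sox8 overlaps in function with both. Sox2 is also known as a factor that glioma stem cells depend on.

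*Sox1*, *Sox2*, *Sox3* and *Sox21* are single-exon protein-coding genes in the GENCODE annotation of GRCm38, *Sox9* has 3 exons, and the transcripts of *Sox8* and *Sox10* have 2 to 3 and 2 to 5. *Sox2* (chr3:34650405-34652461, + strand) lies inside *Sox2ot* (chr3:34104270-34682619), a non-coding transcript on the same strand, so the FPKM of the pair may share fragments even in stranded data. *Sox1* likewise overlaps *Sox1ot* on its own strand, and *Sox8* and *Sox21* each overlap a non-coding gene on the opposite strand. RefSeq gave a promoter window, 250 bases before to 50 bases after the start, for 4 of the 7 genes (GRCm38.p6), and these are shown because *Sox2*, *Sox21* and *Sox8* were the genes that were much lower together in 1 culture described below, while *Sox1* was low in the culture it was compared with. *Sox3*, *Sox9* and *Sox10* were not matched.
Sox2 (chr3:34649745-34650044, + strand): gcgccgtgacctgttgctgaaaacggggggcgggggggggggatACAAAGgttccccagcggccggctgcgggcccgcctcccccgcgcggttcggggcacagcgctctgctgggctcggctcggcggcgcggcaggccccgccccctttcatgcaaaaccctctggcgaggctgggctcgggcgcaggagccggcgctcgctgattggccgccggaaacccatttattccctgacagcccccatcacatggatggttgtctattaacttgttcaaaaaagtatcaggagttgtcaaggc
Sox21 (chr14:118236981-118237280, - strand): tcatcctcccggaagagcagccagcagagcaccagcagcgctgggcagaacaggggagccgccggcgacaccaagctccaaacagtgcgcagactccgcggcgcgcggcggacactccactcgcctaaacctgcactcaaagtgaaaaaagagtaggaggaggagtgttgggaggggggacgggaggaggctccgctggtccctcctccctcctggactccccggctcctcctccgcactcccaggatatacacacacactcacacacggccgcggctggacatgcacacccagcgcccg
Sox8 (chr17:25570637-25570936, - strand): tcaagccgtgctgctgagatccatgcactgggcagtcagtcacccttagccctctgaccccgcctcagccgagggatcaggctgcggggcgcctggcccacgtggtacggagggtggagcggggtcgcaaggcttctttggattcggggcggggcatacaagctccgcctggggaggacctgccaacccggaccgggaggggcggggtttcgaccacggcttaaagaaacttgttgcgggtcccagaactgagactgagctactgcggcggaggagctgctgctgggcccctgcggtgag
Sox1 (chr8:12395269-12395568, + strand): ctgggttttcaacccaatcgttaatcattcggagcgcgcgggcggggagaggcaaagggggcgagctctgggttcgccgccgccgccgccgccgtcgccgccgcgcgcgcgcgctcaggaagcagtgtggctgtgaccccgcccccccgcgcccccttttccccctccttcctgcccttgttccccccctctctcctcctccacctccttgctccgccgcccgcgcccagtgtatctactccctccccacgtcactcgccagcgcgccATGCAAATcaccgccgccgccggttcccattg
Capitals mark the matches to the motifs searched on both strands. The Sox motif, ACAAAG or ACAATG, matched once, in *Sox2* at -206 from the RefSeq start, which lies upstream of the GENCODE start given above, and 28.6% of 32851 promoters hold one. The octamer bound by POU factors, ATGCAAAT, matched once, in *Sox1* at +19, against 1.74% of promoters. The half-site of the inverted repeat that Zfp423 binds, GCACCC (15.7% of promoters), and the whole repeat, which is the half-site, 2 bases and the half-site inverted (0.0244%), matched in none of the 4 windows. The paper's motif analysis predicted a putative Zfp423 site in the *Sox2* promoter. Its motif model and promoter span may differ from this exact search of a short window. The search therefore does not show that a site is absent. The 4 windows were GC-rich, at 65.7 to 70.7% against a median of 52.7% over all promoters.

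*Zfp423* itself was at 4.30, 3.25 and 3.48 FPKM in AstroEGFR* and at 15.7, 9.73 and 105 FPKM in batches 1, 2 and 3 with the vector. It was higher with the vector in 3 of 3 batches, by 3.64-, 2.99- and 30.2-fold, and the groups did not overlap, which holds for 11.5% of the 12366 features tested (log2 fold change 2.52, SE 0.74, limma adjusted p = 0.628). The batch with the highest *Zfp423* was therefore batch 3. The FPKM summed to 361102 to 860068 per library, and 816 small RNA and histone features took 1.05 to 54.9% of them. This share differed within batches between the libraries without and with *Zfp423*, at 1.05 and 35.9% in batch 1, 29.9 and 36.1% in batch 2, and 5.04 and 54.9% in batch 3, and its part in the *Zfp423* differences was not tested beyond the scaling given below. No counts were used, so the depth is unknown. An estimate from the step between low values put AstroEGFR*3 at 0.0743 and PT3 at 0.139 of the depth of PT1, and the other libraries at 0.518 to 0.966. A value near 0 is therefore given as listed and not as absence. All 8 astrocyte markers were found at an average of 1 FPKM or more in each comparison, and their summed FPKM was 320 to 1109 in 9 libraries and 77.1 in AstroEGFR*2 *Zfp423*.

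*Sox2* was the most abundant of the 7 genes in 9 of 10 libraries. Its level was 266, 114 and 74.4 FPKM in AstroEGFR*1, 2 and 3, and 255, 80.1, 96.3 and 255 FPKM in PT1 to PT4. With the *Zfp423* vector it was 80.7, 3.15 and 141 FPKM in batches 1, 2 and 3. The 3 highest values were thus those of AstroEGFR*1 and of PT1 and PT4, which came from it, and the lowest was that of AstroEGFR*2 *Zfp423*, 84.4-fold below the highest. *Sox2* made up 46.4 to 71.1% of the summed FPKM of the 7 genes in 9 libraries and 34.1% in AstroEGFR*2 *Zfp423*, where the sum was 9.24 FPKM against 121 to 550 elsewhere.

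The other SoxB1 genes were low and uneven. *Sox1* was at 0.210, 0.311 and 2.14 FPKM in AstroEGFR*, at 13.0, 0, 0 and 7.80 FPKM in PT (PT1 first), and at 0.019, 0 and 3.18 FPKM with *Zfp423*. *Sox3*, on chromosome X, was at 0.127, 2.88 and 0.0817 FPKM in AstroEGFR*, at 8.11, 1.53, 0.562 and 27.2 FPKM in PT, and at 0.00973, 0 and 0.134 FPKM with *Zfp423*. For both genes PT1 and PT4 were the highest of the 10 libraries, and the other PT lay within or close to the range of AstroEGFR*. *Sox21* followed *Sox2* at a lower level, with 19.8, 7.15 and 6.50 FPKM in AstroEGFR*, 13.5, 3.29, 4.48 and 14.4 FPKM in PT, and 9.78, 0.387 and 6.99 FPKM with *Zfp423*. Its 3 highest values were again those of AstroEGFR*1, PT4 and PT1.

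Of the SoxE genes, *Sox8* and *Sox9* were present in every group. *Sox8* was at 30.7, 51.3 and 10.8 FPKM in AstroEGFR*, at 65.2, 32.3, 22.1 and 69.7 FPKM in PT, and at 17.4, 0.628 and 28.1 FPKM with *Zfp423*. *Sox9* was at 57.0, 16.2 and 37.0 FPKM in AstroEGFR*, at 59.5, 18.6, 24.8 and 58.2 FPKM in PT, and at 12.6, 5.08 and 21.8 FPKM with *Zfp423*. Its spread of 11.7-fold between the highest and the lowest library was the smallest among the 4 genes listed above 0 in every library, and in AstroEGFR*2 *Zfp423* it exceeded *Sox2*. *Sox10* was at 8.18 FPKM in PT1 and at 117 FPKM in PT4, and at 0.103 FPKM or less in the other 8 libraries, 5 of which listed it at 0. The *Sox10* level of PT4 was thus above its *Sox8* and *Sox9*, whereas no other library had *Sox10* above them.

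**Figure D1:**
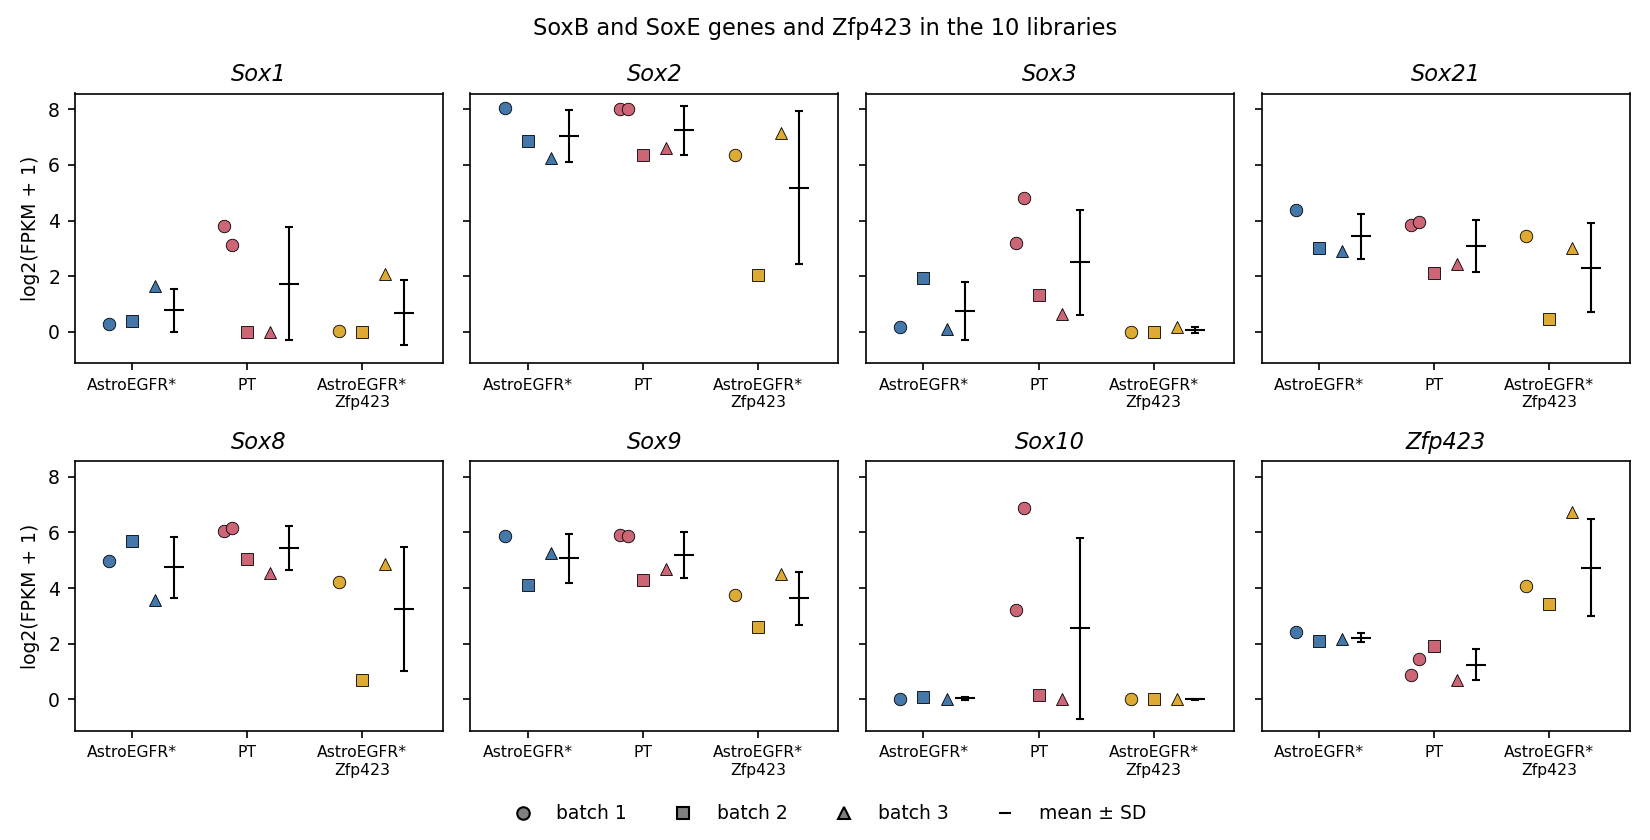
Each panel plots log2(FPKM + 1) of 1 gene in the 10 libraries, by group on the x axis, with the astrocyte batch as the shape of the point and the mean ± SD of each group beside it. *Sox2*, *Sox21*, *Sox8* and *Sox9* were lowest in the *Zfp423* library of batch 2 (yellow square), and *Sox1*, *Sox3* and *Sox10* were highest in the PT of batch 1 (red circles).

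The first comparison asked whether these genes differ between tumour-derived PT and the AstroEGFR* from which the tumours arose. None of the 7 passed the test. On the log2(FPKM + 1) scale *Sox2* was 7.24 ± 0.89 (SD, n = 4) in PT and 7.05 ± 0.93 (SD, n = 3) in AstroEGFR*, a log2 fold change of 0.19 (SE 0.59, 95% interval -1.19 to 1.57, limma adjusted p = 0.932). This interval holds a change of more than 2-fold in either direction. With the batch as a block, which sets each PT beside the AstroEGFR* of its batch, *Sox2* had a log2 fold change of -0.063 (SE 0.21, 95% interval -0.58 to 0.45, limma adjusted p = 0.864), and that interval leaves out a 2-fold change. *Sox9* (0.13, SE 0.56, limma adjusted p = 0.954), *Sox8* (0.69, SE 0.60, limma adjusted p = 0.685) and *Sox21* (-0.35, SE 0.59, limma adjusted p = 0.857) did not pass either. For *Sox1* (0.96, SE 1.05), *Sox3* (1.75, SE 1.02) and *Sox10* (2.52, SE 1.57) the limma adjusted p was 0.763, 0.517 and 0.551, and *Sox1* and *Sox10* reached the filter of a mean of 1 FPKM only through PT1 and PT4. All 7 genes overlapped between the groups, where 14.8% of all features did not, and the two-sided exact permutation p was 0.229 to 0.857, where 3 against 4 libraries allow 0.0286. Of 12261 features tested, 152 or 1.24% were called (0.318% higher and 0.922% lower in PT), so 0 of 7 does not stand apart from this rate.

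Set against the AstroEGFR* of the same batch, the PT fell into 2 patterns. In batch 1, *Sox2* was nearly level, with a log2 difference of -0.06 in both PT1 and PT4, and so was *Sox9*, with 0.06 and 0.03. *Sox1* was 61.9- and 37.2-fold higher in PT1 and PT4 than in AstroEGFR*1, *Sox3* was 64.0- and 215-fold higher, and *Sox10* was at 8.18 and 117 FPKM against a listed 0. The levels in AstroEGFR*1 were all under 1 FPKM, so these ratios are imprecise. These 3 of 7 genes were at least 4-fold higher on the log2(FPKM + 1) scale in each of the pair. The share of all features was 1.97% and 3.17%, but *Sox1* and *Sox10* were tested only because they were high in these libraries, so nothing is read from the count. On the log2(FPKM + 1) scale none of the 7 genes differed by 4-fold in either direction from its own AstroEGFR* in PT2 or PT3. Of all features 6.88% and 3.82% were lower and higher in PT2, and 5.29% and 2.18% in PT3. By FPKM alone *Sox3* was 6.88-fold higher in PT3, at 0.562 against 0.0817 FPKM, both under 1 FPKM. *Sox2* was 1.42-fold lower in PT2 and 1.29-fold higher in PT3, and *Sox1*, low in AstroEGFR*2 and at 2.14 FPKM in AstroEGFR*3, was listed at 0 in both PT.

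*Sox21*, the SoxB2 antagonist, was the gene with the most even difference. It was lower than in the AstroEGFR* of the same batch in 4 of 4 PT, by 1.47-fold in PT1, 1.38-fold in PT4, 2.17-fold in PT2 and 1.45-fold in PT3. PT1 and PT4 share the AstroEGFR*1 library, which had the highest *Sox21* of all (19.8 FPKM), so these are 3 starting cultures. In each pair 17.4 to 24.7% of all features were lower by more. With the batch as a block its log2 fold change was -0.60 (SE 0.18, limma adjusted p = 0.119), still short of the threshold, in a fit that called 475 features or 3.87%. *Sox8* differed the other way in 3 of 4 PT, being 2.12-, 2.27- and 2.05-fold higher in PT1, PT4 and PT3 and 1.59-fold lower in PT2.

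*Olig1* and *Olig2* were high in the same PT as *Sox10*, while other oligodendrocyte lineage markers were uneven between them. The summed FPKM of 9 such markers was 1423 in PT1 and 1667 in PT4, against 161 and 156 in PT2 and PT3 and 109 to 311 in AstroEGFR*. *Olig1* and *Olig2*, factors of this lineage that carried most of the sum, were at 1000 and 328 FPKM in PT1 and at 1089 and 360 FPKM in PT4. *Pdgfra* and *Cspg4*, which mark oligodendrocyte precursors, were at 1.25 and 18.0 FPKM in PT1 and at 41.9 and 64.5 FPKM in PT4, beside 1.48 to 5.67 and 1.12 to 7.08 FPKM in AstroEGFR*, so that *Pdgfra* in PT1 was below every AstroEGFR*. PT1 and PT4 therefore differed in *Sox10*, *Pdgfra* and *Cspg4* while being close in *Sox2*, *Olig1* and *Olig2*. In cultures sequenced in bulk, fewer cells of a type and less RNA per cell cannot be told apart. The sum of the 6 fibroblast markers was 1.08 to 372 FPKM in PT and 312 to 5138 FPKM in AstroEGFR*. All 6 had a lower mean in PT (median log2 fold change -3.94), 5 at an unadjusted limma p below 0.05 and 1 called, against 13.6% and 1.24% of all features, and their part in the Sox values was not tested. In the fit, 6 of the 9 oligodendrocyte markers were tested and 0 were called, 4 of them with a higher and 2 with a lower mean in PT. *Cnp*, the third most abundant of the list, was at 15.9 to 94.4 FPKM in PT and at 36.9 to 87.5 FPKM in AstroEGFR*, and in PT1 (74.5 FPKM) it was below AstroEGFR*1 (87.5 FPKM).

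The wider progenitor and Sox lists gave no call in this comparison either. Of 19 neural progenitor genes 18 were tested and 0 called, 8 with a higher and 10 with a lower mean in PT and a median log2 fold change of -0.14 against 0.03 for all features. In PT2 against AstroEGFR*2, 15 of 18 were lower, 5 of them by 4-fold beside 6.88% of all features. The other 3 were higher, 2 of them by 4-fold beside 3.82%, and *Sox2* was 1.42-fold lower there. *Pou3f1*, a POU factor, was at 18.3, 14.0, 0.165 and 17.0 FPKM in the 4 PT and at 0.644 FPKM or less in every other library. Unlike *Sox1*, *Sox3* and *Sox10*, it was thus high in PT2 as well as in PT1 and PT4. Of 12 other Sox genes 6 were tested and 0 called, 5 with a higher mean in PT.

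The second comparison asked what forced *Zfp423* does to the 7 genes. Over the 3 batches none was called, and none of the 12366 features was, although 913 or 7.38% had an unadjusted limma p below 0.05. *Sox9* was the steadiest of the 4 genes that passed the filter. It was lower with *Zfp423* in 3 of 3 batches, by 4.53-fold in batch 1, 3.19-fold in batch 2 and 1.69-fold in batch 3. Its mean was 3.63 ± 0.96 (SD, n = 3) with and 5.07 ± 0.89 (SD, n = 3) without the vector, a log2 fold change of -1.44 (SE 0.34, 95% interval -2.36 to -0.52, limma unadjusted p = 0.0117, adjusted p = 0.628). Without the batch as a block the SE was 0.62 and the 95% interval, -2.94 to 0.05, held 0. The levels with and without *Zfp423* overlapped across batches, and the exact sign-flip test over 3 batches gave p = 0.25, the smallest it allows. *Sox2* (-1.86, SE 1.16, 95% interval -5.01 to 1.29, limma adjusted p = 0.685), *Sox8* (-1.50, SE 1.30, limma adjusted p = 0.759) and *Sox21* (-1.14, SE 0.59, limma adjusted p = 0.655) had wide errors, since the batches differed. *Sox1*, *Sox3* and *Sox10* averaged under 1 FPKM over these 6 libraries and were not tested.

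The difference in *Sox2* lay mostly in batch 2. There it went from 114 FPKM without to 3.15 FPKM with *Zfp423*, 36.1-fold lower, and 44 of 12366 features were lower by more on the log2(FPKM + 1) scale. *Sox8* went from 51.3 to 0.628 FPKM, 81.7-fold lower, with 35 features below it. *Sox21* went from 7.15 to 0.387 FPKM, 18.5-fold lower. These 3 of the 4 tested genes were at least 4-fold lower, against 4.25% of all features. *Sox2ot*, which encloses *Sox2*, was 37.1-fold lower, at 1.14 against 42.3 FPKM. *Sox3* and *Sox1*, at 2.88 and 0.311 FPKM in AstroEGFR*2, were both listed at 0. In PT2, from the same batch, *Sox2ot* was lower still at 0.357 FPKM, while *Sox2* was at 80.1 FPKM. The study picked out *Sox2* and other Sox genes as responding in batch 2 on these same libraries, so their direction there is not independent evidence.

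In batch 1 the 4 genes were also lower with *Zfp423*, by less. *Sox2* was 3.29-fold, *Sox21* 2.02-fold, *Sox8* 1.76-fold and *Sox9* 4.53-fold lower, and 1 of 4, *Sox9*, passed 4-fold against 1.17% of all features. In batch 3, which had the highest *Zfp423*, the order turned. *Sox2* was 1.90-fold and *Sox8* 2.60-fold higher with the vector, *Sox21* was at 6.99 against 6.50 FPKM, and *Sox9* was 1.69-fold lower. None of the 4 was 4-fold lower, against 6.36% of all features. With 1 library of each kind in a batch these values carry no test of the batch. Without the *Zfp423* library of batch 2 the log2 fold change of *Sox2* was -0.40, that of *Sox21* -0.43, that of *Sox8* 0.26 and that of *Sox9* -1.41, none of them called. Without the *Zfp423* library of batch 3 those of *Sox2* and *Sox21* were -3.25 and -1.75, and that of *Sox8* was -2.89, again without a call. Scaling without small RNA and histone features moved the median of all features from 0.01 to -0.22 in batch 2 and from 0 to 0.15 in batch 3, and left *Sox2* at -1.81, -5.01 and 1.11 in batches 1, 2 and 3 with every direction above as it was.

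**Figure D2:**
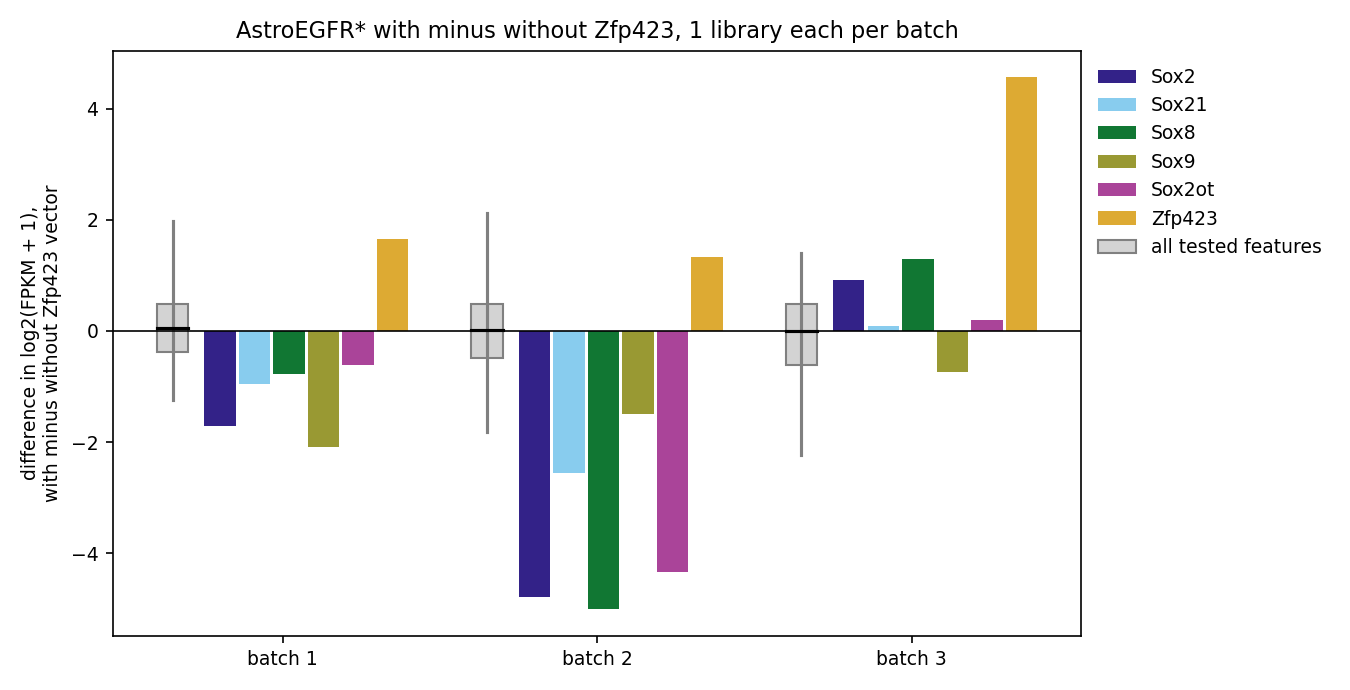
Bars give the difference in log2(FPKM + 1) between the library with and the library without the *Zfp423* vector, 1 of each per batch, for the 4 Sox genes tested, *Sox2ot* and *Zfp423*. The grey box spans the quartiles of all 12366 features around their median, with a line from the 5th to the 95th percentile. In batch 2 *Sox2*, *Sox21*, *Sox8* and *Sox2ot* lie below the line, while in batch 3, where *Zfp423* was highest, *Sox2* and *Sox8* are above 0.

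Markers of other cell types moved in the same libraries. The summed FPKM of 7 microglia markers was 502 and 248 in the *Zfp423* libraries of batches 1 and 2, against 5.69 and 2.31 in AstroEGFR*1 and AstroEGFR*2. It was 1.23 in the *Zfp423* library of batch 3 and 1.57 in AstroEGFR*3. *Csf1r*, the receptor that microglia need for survival, was at 202 and 108 FPKM in batches 1 and 2 with *Zfp423* and at 0.691 FPKM or less in every other library. *Cx3cr1* was at 105 and 13.7 FPKM in the same pair. *Cd68*, a lysosomal protein of phagocytes, was at 81.6 and 65.0 FPKM there, at 36.5 FPKM in PT2 and at 3.93 FPKM or less elsewhere. The sum of 6 fibroblast or meningeal markers was 4522, 6273 and 228 in the *Zfp423* libraries of batches 1, 2 and 3, against 312, 510 and 5138 in AstroEGFR*1, 2 and 3. *Col1a2* was at 2641 FPKM in AstroEGFR*2 *Zfp423* against 343 FPKM in AstroEGFR*2, and *Col1a1* and *Col3a1*, also collagens of connective tissue, were at 1946 and 1590 FPKM against 90.9 and 43.0 FPKM. Of the 6 fibroblast markers in batch 2, 5 were higher with *Zfp423* and *Lum* was lower, at 0.0196 against 4.02 FPKM. In batch 3, where *Sox2* and *Sox8* were higher with *Zfp423*, all 6 fibroblast markers were at least 4-fold lower, beside 6.36% of all features. The part of these markers in the Sox differences was not tested.

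Other genes of neural progenitors were also lower with *Zfp423* in the batch 2 pair. Of 19 listed progenitor genes, 16 were tested and 16 were lower with *Zfp423* in batch 2, 10 of them at least 4-fold beside 4.25% of all features, with a median log2 difference of -3.00 against 0.01 for all features. *Fabp7*, the brain fatty acid binding protein of radial glia, went from 1261 to 0.316 FPKM, and 3 features were lower by more. *Vim* and *Nes*, the intermediate filaments of progenitors, went from 3814 to 2833 FPKM and from 237 to 106 FPKM. *Pou3f3* and *Pou3f2*, POU factors that pair with Sox proteins, went from 62.1 to 1.51 FPKM and from 14.8 to 0.254 FPKM. *Notch1* went from 63.9 to 5.12 FPKM, and *Lhx2*, a cortical homeobox factor, from 52.3 to 1.23 FPKM. *Olig1* and *Olig2*, at 81.8 and 42.9 FPKM in AstroEGFR*2, were listed at 0 with *Zfp423*, while *Cspg4* of the same list was at 1.12 and 49.9 FPKM, and of 6 oligodendrocyte lineage markers tested in this pair 4 were lower and 2 higher. The 8 astrocyte markers were likewise lower in 8 of 8, 5 of them by 4-fold beside the same 4.25%, with a median of -2.74. In batch 1, 7 of 8 were lower, and in batch 3, where *Sox2* and *Sox8* were higher, 5 of 8 were lower (median -0.52). *Aldh1l1* was at 1.69 FPKM and *Gfap* at 1.11 FPKM in AstroEGFR*2 *Zfp423*, whereas *Gja1*, a gap junction gene that fibroblasts also express, was at 52.2 FPKM.

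In batch 1 with *Zfp423*, 15 of 16 progenitor genes were lower and none by 4-fold (median -0.80 against 0.05 for all features). In batch 3, 12 of 16 were higher (median 0.43 against 0), and *Fabp7* was at 1906 FPKM against 393 FPKM. Over the 3 batches 0 of 16 were called, 1 had a higher and 15 a lower mean with *Zfp423*, and the median log2 fold change was -1.01 against 0.02 for all features. Of 12 other Sox genes, 6 were tested and 0 called, with a lower mean for 5. *Sox4*, the most abundant of them, was at 102, 48.9 and 53.7 FPKM in AstroEGFR* and at 63.6, 33.7 and 83.1 FPKM with *Zfp423*. *Sox6*, a partner of Sox9 in cartilage, was at 18.7 FPKM in AstroEGFR*2 and at 0.340 FPKM with *Zfp423*. *Sox11*, the 1 with a higher mean, was at 5.43, 17.8 and 2.06 FPKM in AstroEGFR* and at 9.13, 4.20 and 17.6 FPKM with *Zfp423*.

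Genes that SoxE factors are known to activate were low throughout. Of 14 listed, 13 were found, and 4 to 6 were tested per comparison with 0 called. The most abundant, *Col2a1*, the cartilage collagen, reached 19.0 FPKM in AstroEGFR*3 and at most 3.47 FPKM in the other 9 libraries. *Mitf*, the melanocyte factor, was at 0.778 to 4.83 FPKM, and *Erbb3*, the neuregulin receptor of glia, at 0.0608 to 7.81 FPKM. Their medians were 0.20 in PT against AstroEGFR* and 0.77 with against without *Zfp423*, beside 0.03 and 0.02 for all features, while *Sox9* was lower with *Zfp423* in each batch.

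**Figure D3:**
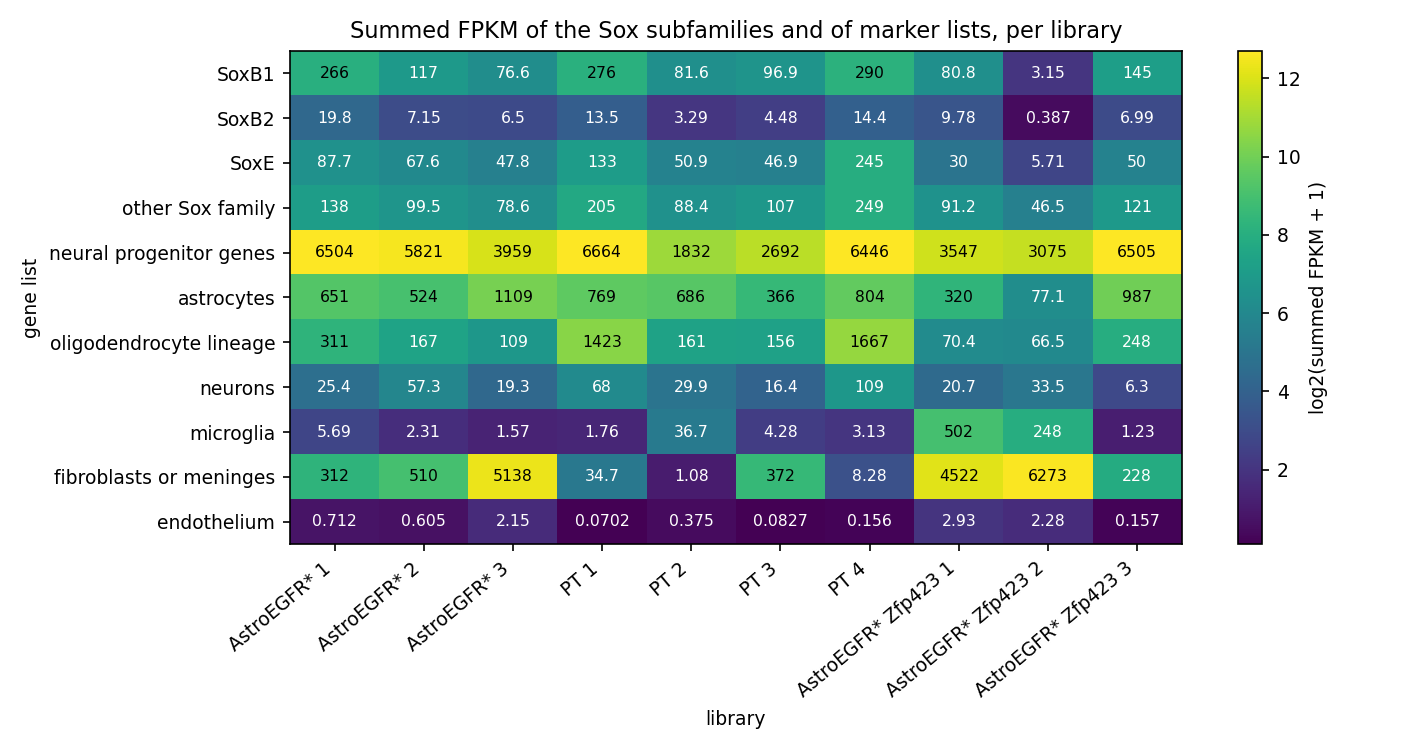
Numbers and colours give the summed FPKM of each gene list (rows) in each of the 10 libraries (columns), coloured as log2(summed FPKM + 1). The SoxB1, SoxB2, SoxE and astrocyte rows are at their lowest in AstroEGFR* Zfp423 2, where the microglia and fibroblast rows stand at 248 and 6273, and the oligodendrocyte lineage row is highest in PT1 and PT4.

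The third comparison set PT against AstroEGFR* with *Zfp423*, and it uses the libraries of the other comparisons again. All 7 genes had a higher mean in PT and none was called, while 2 of 12412 features or 0.0161% were. The log2 fold change was 2.05 (SE 1.18) for *Sox2*, 2.19 (SE 0.97) for *Sox8*, 1.57 (SE 0.58) for *Sox9* and 0.79 (SE 0.80) for *Sox21*, with limma adjusted p-values from 0.274 to 0.672. Without the *Zfp423* library of batch 2 these became 0.48 for *Sox2*, 0.91 for *Sox8*, 1.06 for *Sox9* and -0.13 for *Sox21*, and without that of batch 3 *Sox2* became 3.03. *Sox1* (1.04, SE 1.12) and *Sox10* (2.55, SE 1.59) had limma adjusted p-values of 0.693 and 0.467. *Sox1*, *Sox3* and *Sox10* reached the filter here mainly through PT, where they were high, so their values are given as a description. For *Sox3* the groups did not overlap, with 0.562 to 27.2 FPKM in PT and 0.134 FPKM or less with *Zfp423*. Its log2 fold change was 2.43 (SE 0.95, 95% interval 0.21 to 4.65, limma adjusted p = 0.285, two-sided exact permutation p = 0.0857), and 14.5% of all features did not overlap. *Sox9* ranged from 18.6 to 59.5 FPKM in PT and from 5.08 to 21.8 FPKM with *Zfp423*, so that PT2 alone fell within the other group's range. Microglia and fibroblast markers had lower means in PT, whereas most tested markers of astrocytes (6 of 8), the oligodendrocyte lineage (5 of 7) and neurons (2 of 2) had higher means. For microglia the lower mean held for 7 of 7 (median log2 fold change -3.16), 5 of them at an unadjusted limma p below 0.05, and for fibroblasts for 5 of 5 tested (median -4.39), 2 of them at that level, where 16% of all features had such a p. None of these markers was called, and their part in the Sox differences was not tested. Without the *Zfp423* libraries of batches 1 and 2, which leaves 1 library assumed to vary like the PT, the log2 fold change was 0.08 for *Sox2*, 0.09 for *Sox21*, 0.58 for *Sox8*, 0.68 for *Sox9* and -0.33 for *Sox1*, while *Sox3* (2.32) and *Sox10* (2.56) were close to their values with all libraries. None was called.

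**Figure D4:**
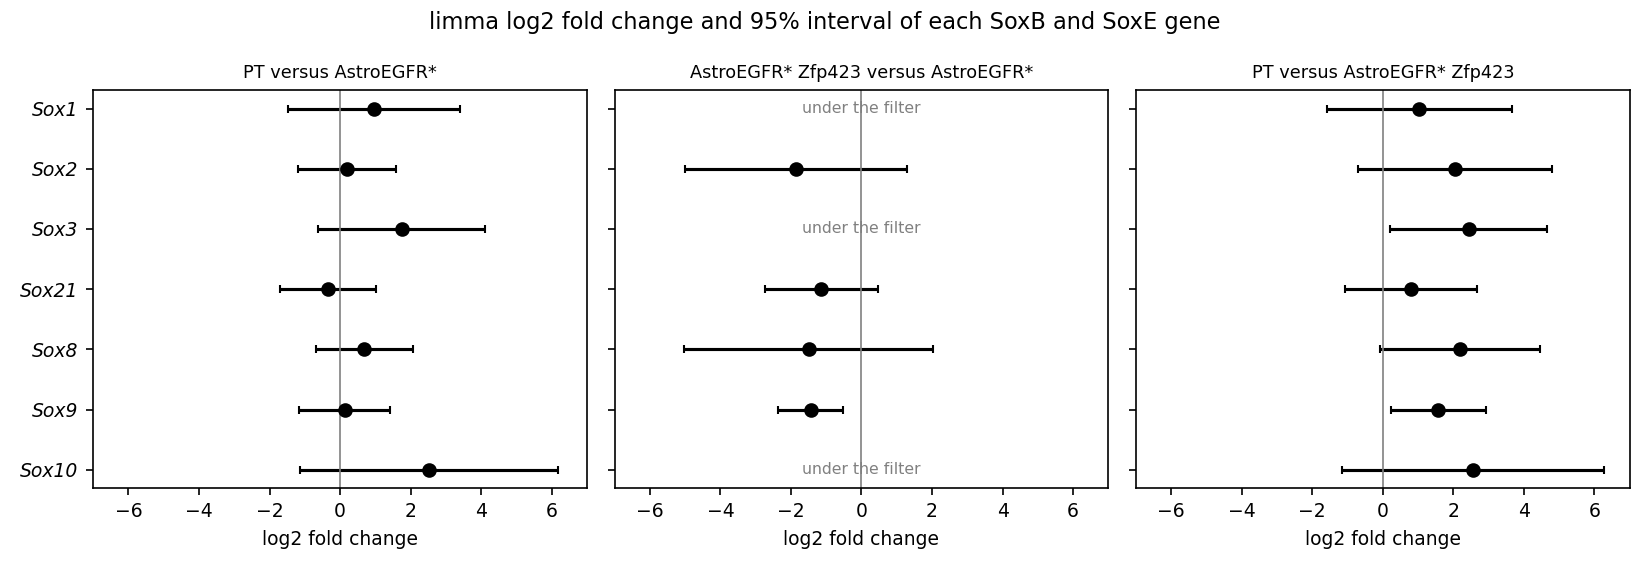
Points give the limma log2 fold change of each gene and bars its 95% interval in the 3 comparisons. Genes that averaged under 1 FPKM over the libraries compared are marked. The intervals of *Sox9* in both comparisons with the *Zfp423* group leave out 0, that of *Sox3* in the third comparison does so for a gene that reached the filter through PT, and no adjusted p passed 0.05. Without the block, which is not plotted, the *Sox9* interval with against without *Zfp423* was -2.94 to 0.05.

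The mean log2 level ranked PT above AstroEGFR* above AstroEGFR* with *Zfp423* for 6 of the 7 genes, and AstroEGFR* first for *Sox21*. Batch 1 enters the PT means with 2 libraries, and with PT1 and PT4 averaged or the batch as a block *Sox2* and *Sox9* were also lower in PT than in AstroEGFR*. The tests above told no neighbouring groups in these orders apart.

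Several of the genes varied together across the 10 libraries. These correlations are descriptions, since the points share batches, library type and, in 1 case, a library near 0. *Sox2* ran with *Sox8* (r = 0.94, Spearman's rho 0.73), *Sox21* (r = 0.92, rho 0.87) and *Sox9* (r = 0.86, rho 0.68). All of these genes were lowest in AstroEGFR*2 *Zfp423*, and how far r rests on that library was not tested. *Sox3* ran with *Sox10* (r = 0.92, rho 0.77), and *Sox2* with *Sox10* at r = 0.40. By rank *Sox8* was nearest to *Sox3* (rho 0.94, r = 0.64) and to *Sox10* (rho 0.81, r = 0.48), so the order of likeness depended on the measure. Among 12475 features, those most like *Sox2* were *Gspt2* (r = 0.98), *Atp6v0e2* (r = 0.98) and *Sall1*, a zinc-finger factor of neural progenitors (r = 0.97). For *Sox8* they were *Notch1* (r = 0.99, rho 0.99), *Rragb* and *P4htm*, for *Sox21* they were *Plxnb1* (r = 0.98, rho 0.99), *Maml2* and *Jam2*, and for *Sox9* they were *Sspn* (r = 0.98, rho 0.94), *Parp16* and *Nat14*. *Sox1* was most like *Htra3* (r = 0.94), *Nkain2* and *Add2*, and *Sox3* most like *Timp4* (r = 0.97, rho 0.99), *Cmtm5* and *Cdh22*.

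For *Sox10* the nearest were 3110035E14Rik (r = 0.98, rho 0.63), *Ugt8a* (r = 0.98, rho 0.38) and *Gjc3* (r = 0.97, rho 0.67). *Ugt8a* makes the galactolipid of myelin and *Gjc3* is a connexin of oligodendrocytes. PT4 held most of the *Sox10*, and 5 libraries listed it at 0, which ties their ranks. Whether these 3 likenesses rest on PT4 was not tested.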

How the data were processed

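RNAseq was available for 10 libraries, namely 3 AstroEGFR*, 4 PT and 3 AstroEGFR* with *Zfp423*. The authors deposited FPKM per gene symbol, made per the submitters' processing notes with TopHat 1.3, Cuffnorm and mm9. The annotation is not given in the sources used here. The labels name a TruSeq RNA kit and a lentiviral *Zfp423* vector, where the paper describes ribosomal RNA removal with stranded libraries and a retroviral vector. Groups came from the labels and the batch of each PT from the paper.

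The study's CuffDiff test needs reads, so limma 3.58.1 (R 4.3.3, linear model, empirical Bayes with trend) was fitted on log2(FPKM + 1), which understates changes of low genes, over features that averaged 1 FPKM or more in the libraries compared. P-values were adjusted by Benjamini-Hochberg over these features, with a threshold of 0.05. PT was compared without a block, and *Zfp423* with the astrocyte batch as a block. Single genes were also tested by two-sided exact permutation. Differences within a batch were called at 4-fold on the log2(FPKM + 1) scale. The fits were tested on simulated data. FPKM give no depth, so no counting intervals were computed.

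The batch pairs came from the titles and the paper. Deviations from the group means correlated at 0.35 to 0.50 between each PT and its own AstroEGFR*, and at 0.24, -0.11 and -0.26 between AstroEGFR* with and without *Zfp423* in batches 1, 2 and 3. Between PT and the AstroEGFR* of other batches the values were -0.34 to -0.09. The *Zfp423* library of batch 2 reached 0.30 with AstroEGFR*3, and that of batch 3 reached 0.22 with AstroEGFR*2. In these 2 batches the pairs used were thus less alike than a pair across batches. *Xist* was at 20.4 to 34.9 FPKM in the 3 libraries of batch 2 and at 0.0403 FPKM or less in the other 7, a check of the batch 2 labels chosen after values were seen.

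Named were the 7 genes, *Zfp423*, list genes called in any comparison, the 3 most abundant of each list, and the 3 features with the highest r with each gene over 10 libraries. Further list genes, *Sox2ot* and the library order were named after their values were seen. The 7 genes and the lists (neural progenitor, other Sox, SoxE target genes, and markers of astrocytes, oligodendrocyte lineage, neurons, microglia, fibroblasts or meninges, and endothelium) were chosen with earlier results of these data known. Alternatives tried were 2 scalings, a pseudocount of 0.1, no filter, all 10 libraries in 1 fit, the block added or left out, PT1 and PT4 averaged, and each library left out. Promoters came from RefSeq. Python 3.11.15, numpy 2.4.6, pandas 2.3.3, scipy 1.17.1 and matplotlib 3.10.9 were used. Some list genes are not reported singly here. ChIPseq and qPCR data were not analysed here.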

Additional observations from a re-analysis of the deposited data

Results flagged for a closer look

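The following differences had opposite signs in different astrocyte batches. Each batch held 1 library per group, or 2 of PT in batch 1, so whether the batches differ was not tested. With against without *Zfp423*, the log2 difference between batches spanned 5.70 for *Sox2* (-4.79 in batch 2 to 0.92 in batch 3), 6.31 for *Sox8* (-5.01 to 1.30) and 2.65 for *Sox21* (-2.55 to 0.09). The *Zfp423* library of batch 2 also held 248 FPKM of microglia and 6273 FPKM of fibroblast markers, and that of batch 3 held 1.23 and 228 FPKM.

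In PT against the AstroEGFR* of the same batch, the span was 5.18 for *Sox1* and 5.26 for *Sox3*, both higher in PT1 and PT4. For *Sox1* the lowest was PT3 at -1.65, and for *Sox3* it was PT2 at -0.61. The span was 1.81 for *Sox8*, 0.869 for *Sox2* and 0.749 for *Sox9*, beside SDs among the PT of 0.78, 0.89 and 0.83.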

How the results depend on the processing

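Over the fits in use and their alternatives, 276 values of single members were tested and none was called. The lowest limma adjusted p was 0.119 (*Sox21*, PT against AstroEGFR* with the batch as a replicate block). The number of features called between PT and AstroEGFR*, 152, became 475 with the block, 82 with all 10 libraries in 1 fit, 61 with PT1 and PT4 averaged, and 7 to 123 with 1 library left out. With against without *Zfp423* it was 0 of 12366, 2 without the block, and 0 to 60 with 1 library left out. The higher counts, 47 and 60, came without AstroEGFR*2 or AstroEGFR*2 *Zfp423*. Between PT and AstroEGFR* with *Zfp423*, 2 features became 0 with a pseudocount of 0.1, without the filter or with PT1 and PT4 averaged, 20 with the block, 28 with all libraries, 7 without the *Zfp423* libraries of batches 1 and 2, and 0 to 629 with 1 library left out. The value of 213 came without PT2 and that of 629 without AstroEGFR*3 *Zfp423*. The cause of these changes was not tested.

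Between PT and AstroEGFR*, the log2 fold change of *Sox2* (0.19) turned to -0.063 with the block and -0.064 with PT1 and PT4 averaged, and ranged from -0.21 to 0.70 with 1 library left out, below 0 without AstroEGFR*3, PT1 or PT4. That of *Sox9* (0.13) turned to -0.093 with the block and -0.11 with the average and ranged from -0.36 to 0.52, below 0 without AstroEGFR*2, PT1 or PT4. That of *Sox21* (-0.35) ranged from -0.63 to 0.12, above 0 without AstroEGFR*1. *Sox8* (0.69) came down to 0.097 without AstroEGFR*3, and *Sox10* (2.52) and *Sox3* (1.75) to 1.08 and 0.98 without PT4, and *Sox1* (0.96) to 0.27 without PT1. With against without *Zfp423*, *Sox8* (-1.50) ranged from -2.89 to 0.26, above 0 without either library of batch 2. Between PT and AstroEGFR* with *Zfp423*, *Sox21* (0.79) ranged from -0.13 without AstroEGFR*2 *Zfp423* to 1.35, and *Sox1* to -0.33 without the *Zfp423* libraries of batches 1 and 2, an alternative chosen after seeing the data. With a pseudocount of 0.1 the batch 2 differences of *Sox21* and *Sox8* were -3.90 and -6.14. The block changed no call of a member. *Sox1* and *Sox10* were near 0 in most libraries, and the estimated depth was lowest in AstroEGFR*3 and PT3, which limits what their low values show.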

Other observations

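Lists not described above held few tested genes. Of 6 neuronal markers 5 were found, and 1 or 2 were tested per comparison with 0 called. *Tubb3*, the neuronal tubulin, was at 67.7 FPKM in PT1 and 99.4 FPKM in PT4 and at 6.23 to 56.4 FPKM in the other 8 libraries. *Dcx*, a neuroblast gene, was at 8.76 FPKM in PT4 and at 0.0801 FPKM or less elsewhere, and *Syt1* stayed at 0.874 FPKM or less. Of 5 endothelial markers none reached the filter, and *Cdh5*, *Tek* and *Kdr* stayed at 1.59 FPKM or less. The only listed gene called in any comparison was *Pdgfrb*, a receptor of pericytes and fibroblasts, which fell by 4.14 on the log2 scale in PT against AstroEGFR* (SE 0.57, limma adjusted p = 0.0200) and was lower than in every AstroEGFR* in 4 of 4 PT.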
